A study of Mus musculus with 3 samples.

Results

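The transcripts of 10 cytokine genes (*Il6*, *Il1a*, *Il1b*, *Il1rn*, *Il11*, *Il33*, *Lif*, *Csf1*, *Csf2* and *Csf3*) were compared between the murine colon adenocarcinoma cell line Colon26, its high-metastatic subline LuM1 and its low-metastatic subline NM11. The genes were chosen by name, and their probes were found through the RefSeq accession that the scanner files give for each probe. All 10 genes had a probe, 16 probes in all, among 22911 named genes with 32994 probes on the array. Each line was measured once, on 1 single-colour array per line, so no difference between lines could be tested against replicates. The error given after each signal is that of the scanner software for the spot and does not cover differences between cultures.

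The lines come from female BALB/c mice and were kept on tissue culture plates, untreated, in RPMI medium with serum and antibiotics. The study describes aggregates of LuM1 cells, and not of the others, once cultures were confluent, which was after day 3. Up to day 3, when RNA was taken, it describes cells of all 3 lines as sparse and spindle-shaped. It also refers to the LuM1 cells of its array data as aggregates. Any part of aggregation cannot be told apart from line here. RNA was taken after 3 days of culture, and 0.1 µg of it was labelled. How the sublines were selected, and whether either is 1 clone, is not given in the sources used here. Of the colon epithelial markers in a list of 10 genes, *Cdh1*, *Krt18*, *Krt19*, *Vil1* and *Cdx1* were not well above background on any array, and *Epcam* reached that mark in LuM1 cells only, at 28.0 ± 5.18. *Krt20* gave 651.4 in Colon26, 54.5 in LuM1 and 157.3 in NM11 cells, and *Cdx2* gave 443.0, 231.7 and 167.2. *Krt8* went the other way, at 28.9, 107.6 and 37.1, 3.72-fold higher in LuM1 than in Colon26 and 2.90-fold higher than in NM11. In all, 4 of the 10 markers were well above background in Colon26, 5 in LuM1 and 4 in NM11 cells.

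IL-6, IL-11 and LIF each bind a receptor chain of their own and signal through the shared chain gp130, which activates JAK kinases and the transcription factor STAT3. The IL-1 family holds the agonists IL-1α and IL-1β, the receptor antagonist IL-1Ra that *Il1rn* encodes, and the nuclear alarmin IL-33, whose receptor is ST2. The colony-stimulating factors M-CSF (*Csf1*), GM-CSF (*Csf2*) and G-CSF (*Csf3*) drive the growth and maturation of macrophages and granulocytes, and tumor cells of several kinds secrete them.

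Promoter sequences are shown for *Il6*, *Lif* and *Csf2*, which were at least 2-fold higher in both sublines than in Colon26 cells. Each is the RefSeq window of 300 bases on GRCm38.p6, from 250 bases before to 50 bases after the annotated start, and other start sites are not covered. The *Il6* window lies at chr5:30012864-30013163 on the plus strand, that of *Lif* at chr11:4257318-4257617 on the plus strand, and that of *Csf2* at chr11:54249850-54250149 on the minus strand. Capitals mark matches, on either strand, to 3 short motifs: the AP-1 motif TGANTCA, an NF-κB pattern of GGG and CC with any 5 bases between them, and the C/EBP pattern TTGCNNAA. Matches of the same motif may overlap.
Il6: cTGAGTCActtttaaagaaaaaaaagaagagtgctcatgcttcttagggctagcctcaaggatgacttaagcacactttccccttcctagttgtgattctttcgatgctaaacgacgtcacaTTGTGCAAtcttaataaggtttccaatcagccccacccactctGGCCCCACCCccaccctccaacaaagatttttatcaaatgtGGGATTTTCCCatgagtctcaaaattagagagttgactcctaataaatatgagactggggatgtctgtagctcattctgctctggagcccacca
Lif: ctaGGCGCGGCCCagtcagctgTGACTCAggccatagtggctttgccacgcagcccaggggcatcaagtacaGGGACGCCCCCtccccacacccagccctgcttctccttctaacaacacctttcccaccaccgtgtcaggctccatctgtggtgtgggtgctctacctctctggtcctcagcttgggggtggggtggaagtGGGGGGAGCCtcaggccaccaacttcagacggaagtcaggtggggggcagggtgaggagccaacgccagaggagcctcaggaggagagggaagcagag
Csf2: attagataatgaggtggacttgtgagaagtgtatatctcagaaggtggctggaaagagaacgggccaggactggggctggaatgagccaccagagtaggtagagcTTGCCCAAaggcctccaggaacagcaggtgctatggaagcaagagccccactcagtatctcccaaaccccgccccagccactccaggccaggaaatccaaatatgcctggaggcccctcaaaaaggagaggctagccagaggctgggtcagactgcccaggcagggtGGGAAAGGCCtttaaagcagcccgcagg

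The *Il6* window held all 3 motifs. The AP-1 match began 249 bases before the start, the C/EBP match 128 bases before it, and the 3 NF-κB matches 85, 44 and 43 bases before it, the last pair overlapping. The *Lif* window held 1 AP-1 match and 4 NF-κB matches, and the *Csf2* window 1 NF-κB and 1 C/EBP match. Windows were found for 9 of the member genes, which excludes *Csf3*, with 13 annotated starts. The AP-1 motif was in a window of 5 of these 9 genes (*Il6*, *Il1a*, *Il1rn*, *Il11* and *Lif*), and 7.81% of all 32851 mouse windows held it. The NF-κB pattern was in 6 (*Il6*, *Il1rn*, *Il11*, *Lif*, *Csf1* and *Csf2*), and 50.8% of all windows held it. The C/EBP pattern was in 3 (*Il6*, *Il33* and *Csf2*), against 10.8% of all windows. A gene with several starts had more windows in which a motif could be found. A match describes letters in the window and does not by itself show binding.

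Signals below are intensities on a linear scale, scaled so that the 75th percentile of each array was equal. The scanner software marks a probe as well above background or not. A probe without that mark has only a bound, given as "at least N-fold". It is taken against the lowest signal well above background on that array (26.4 in Colon26, 20.1 in LuM1 and 19.6 in NM11 cells) or against the signal of the probe where that is higher. A gene was called higher or lower at a ratio of 2 or more, bounds included. A ratio is said to be within the scanner error where it was no larger than 2 times that error on the log2 scale. Signals of different probes were not set against each other, because probes differ in brightness. The sums over marker lists add different probes, so the brightest ones dominate them.

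Of the 10 genes, 4 were well above background in Colon26 cells (*Il11*, *Il33*, *Lif* and *Csf1*). LuM1 cells had 7, the same genes with *Il6*, *Csf2* and *Csf3*, and NM11 cells had 8, those 7 with *Il1rn*. Over all named genes the share well above background was 57.0% in Colon26, 60.0% in LuM1 and 59.2% in NM11 cells. *Il1a* and *Il1b* were not well above background in any line.

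**Figure D1:**
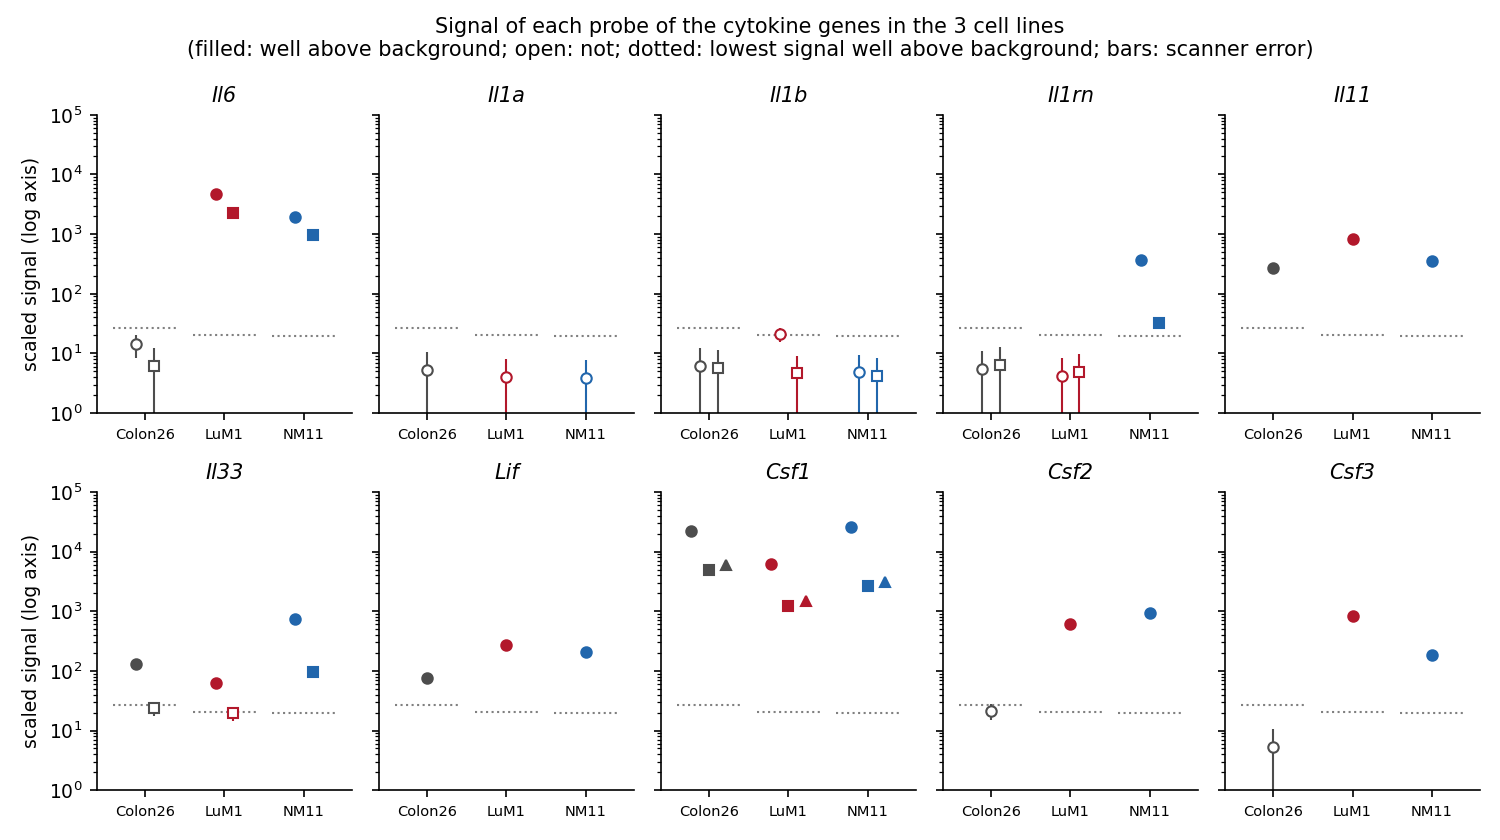
Scaled signal of each probe (log axis) in Colon26, LuM1 and NM11 cells, 1 array per line; symbols of different shape in a panel are different probes of the gene, filled symbols are well above background, bars are the scanner error and dotted lines mark the lowest signal well above background. *Il6* and *Csf3* are open in Colon26 cells and filled in both sublines, *Il1rn* is filled in NM11 cells only, and *Il1a* is open throughout.

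Among the cytokines that signal through gp130, *Il6* had the largest ratios. Its brighter probe gave 14.2 ± 5.82 in Colon26 cells, too dim to be well above background, 4770.3 ± 477.1 in LuM1 and 1969 ± 197 in NM11 cells. Colon26 cells thus had no *Il6* signal well above background, while both sublines had a strong one, higher in LuM1 than in NM11 cells. The ratio was at least 181-fold in LuM1 and at least 74.6-fold in NM11 cells over Colon26, and LuM1 was 2.42-fold above NM11 cells (log2 1.28 ± 0.20). Of 14182 genes with a ratio of LuM1 over Colon26, 30 had a value at least as high as that of *Il6*, itself included, and of 13832 genes for NM11 over Colon26 there were 21.

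The other *Il6* probe, for the same transcript, gave 6.11 in Colon26, 2258 in LuM1 and 957.6 in NM11 cells. Its bounds were 85.5-fold and 36.3-fold over Colon26, and its ratio of LuM1 over NM11 was 2.36. The probes differed in brightness and hardly in the ratio between the sublines.

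*Il11*, a gp130 cytokine that acts on stromal and epithelial cells, was measured in every line. It gave 275.6 ± 28.1 in Colon26, 829.8 ± 83.1 in LuM1 and 347.5 ± 35.0 in NM11 cells. LuM1 cells stood above both other lines, by 3.01-fold over Colon26 (log2 1.59 ± 0.21) and by 2.39-fold over NM11 (log2 1.26 ± 0.20). Colon26 and NM11 cells were within the scanner error of each other, with a log2 ratio of 0.33 ± 0.21 that turned to -0.15 when arrays were scaled to *Hprt*.

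*Lif*, which holds embryonic stem cells undifferentiated and acts on many other cells, gave 77.1 ± 9.43 in Colon26, 274.6 ± 27.8 in LuM1 and 210.7 ± 21.4 in NM11 cells. Both sublines were above Colon26, LuM1 by 3.56-fold (log2 1.83 ± 0.23) and NM11 by 2.73-fold (log2 1.45 ± 0.23). The call in NM11 cells was lost when arrays were scaled to *Hprt*, where the log2 ratio was 0.96, and after normexp background correction, where it was 0.99. The sublines were within the scanner error of each other (log2 0.38 ± 0.21).

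In the IL-1 family, neither agonist gene was well above background. *Il1a* gave 5.30, 4.06 and 3.91 in Colon26, LuM1 and NM11 cells, each no larger than its scanner error. *Il1b*, which encodes the secreted agonist, gave 6.19 in Colon26, 21.0 ± 5.26 in LuM1 and 4.83 in NM11 cells with its brighter probe. The LuM1 and NM11 values were marked as significantly above background and not as well above it. The other *Il1b* probe gave 5.70, 4.64 and 4.12, of which only the LuM1 value had that mark. No ratio was taken for either gene, and the detection limit leaves low levels of both unresolved.

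*Il1rn*, the receptor antagonist, was detected in NM11 cells only. Its brighter probe gave 5.52 in Colon26, 4.20 in LuM1 and 371.6 ± 37.4 in NM11 cells. NM11 cells were at least 14.1-fold above Colon26 and at least 18.5-fold above LuM1 cells. The dimmer probe gave 6.30, 4.90 and 32.5 ± 5.67, with bounds of 1.23-fold and 1.61-fold, so it had the same order without reaching 2-fold.

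*Il33*, the alarmin released from damaged cells, was highest in NM11 and lowest in LuM1 cells. Its brighter probe gave 128.3 ± 14.0 in Colon26, 62.3 ± 7.55 in LuM1 and 749.5 ± 75.1 in NM11 cells. NM11 cells were 5.84-fold above Colon26 (log2 2.55 ± 0.21), and LuM1 cells were 12.0-fold below NM11 (log2 -3.59 ± 0.23). LuM1 cells were 2.06-fold below Colon26 (log2 -1.04 ± 0.24), just past the 2-fold line, and this call was lost under 5 of the alternatives in processing. The dimmer probe was well above background in NM11 cells only, at 95.0 ± 10.4, at least 3.60-fold above Colon26 and at least 4.72-fold above LuM1 cells.

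The colony-stimulating factor genes did not share a pattern. *Csf1*, which encodes the macrophage growth factor, gave a signal well above background in every line and was lowest in LuM1 cells. The brightest probe gave 22497 ± 2249.7 in Colon26, 6067 ± 607 in LuM1 and 25517 ± 2552 in NM11 cells. LuM1 cells were 3.71-fold below Colon26 (log2 -1.89 ± 0.20) and 4.21-fold below NM11 cells (log2 -2.07 ± 0.20).

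Both other *Csf1* probes carry another RefSeq accession of the gene and gave 4929 and 5851 in Colon26, 1240.3 and 1486 in LuM1, and 2643 and 3146 in NM11 cells. They too were lowest in LuM1 cells, 3.97-fold and 3.94-fold below Colon26. For NM11 against Colon26 the probes disagreed. The brightest had a log2 ratio of 0.18 ± 0.20, within the scanner error, and the others had -0.90 and -0.89, so that LuM1 was below NM11 cells to a ratio of 0.469 and 0.472 with these probes. The order of Colon26 and NM11 for *Csf1* therefore depends on the probe.

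*Csf2*, which encodes GM-CSF, gave 21.3 ± 6.04 in Colon26 cells, not well above background, 615.5 ± 61.7 in LuM1 and 926.2 ± 92.7 in NM11 cells. Both sublines stood well clear of Colon26, at least 23.3-fold higher in LuM1 and at least 35.1-fold higher in NM11 cells. LuM1 cells were below NM11 cells to a ratio of 0.665 (log2 -0.59 ± 0.20), beyond the scanner error and short of 2-fold, and this difference was 0.00 when arrays were scaled to *Hprt*.

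*Csf3*, which encodes the granulocyte factor G-CSF, gave 5.31 in Colon26 cells, not well above background, 831.2 ± 83.2 in LuM1 and 181.1 ± 18.5 in NM11 cells. LuM1 was the highest line and Colon26 the lowest. The ratio over Colon26 was at least 31.5-fold in LuM1 and at least 6.86-fold in NM11 cells, and LuM1 was 4.59-fold above NM11 cells (log2 2.20 ± 0.21).

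**Figure D2:**
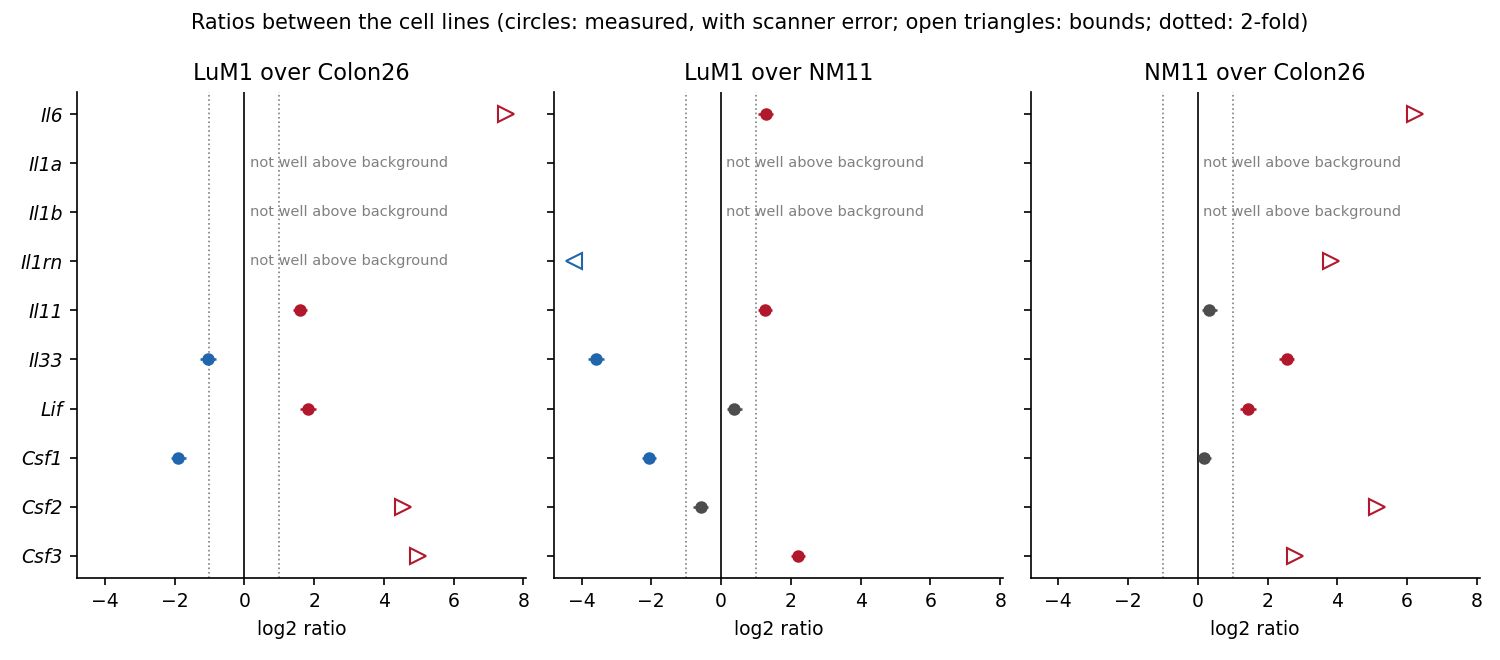
Log2 ratio of each gene's brightest probe in LuM1 over Colon26, LuM1 over NM11 and NM11 over Colon26, with circles for ratios measured on both arrays (bars are the scanner error), open triangles for bounds, and dotted lines at 2-fold. *Il6*, *Csf2* and *Csf3* lie right of the 2-fold line against Colon26 in both sublines, and *Il33* and *Csf1* lie left of it in LuM1 against either line.

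Counted over the 10 genes, 7 could be compared between LuM1 and Colon26 cells. Of these, 5 were higher in LuM1 cells (*Il6*, *Il11*, *Lif*, *Csf2* and *Csf3*), where 12.9% of all 14353 genes compared were higher, and 2 were lower (*Il33* and *Csf1*), where 11.7% of all were lower. Between LuM1 and NM11 cells 8 could be compared. LuM1 cells were higher for 3 (*Il6*, *Il11* and *Csf3*; 11.1% of all 14415 genes) and lower for 3 (*Il1rn*, *Il33* and *Csf1*; 8.5% of all).

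Between NM11 and Colon26 cells 8 could be compared as well. NM11 cells were higher for 6 (*Il6*, *Il1rn*, *Il33*, *Lif*, *Csf2* and *Csf3*; 8.17% of all 14109 genes) and lower for 0, where 7.74% of all genes were lower. With 1 array per line no test or p-value stands behind this 0. Against both other lines, LuM1 cells were higher for 3 (*Il6*, *Il11* and *Csf3*; 7.8% of all 13940 genes) and lower for 2 (*Il33* and *Csf1*; 4.28% of all). The comparisons share arrays, so a value in 1 of them is not independent of the others. These counts leave out *Il1a* and *Il1b*, and a gene entered a comparison only if 1 of its lines was well above background.

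The median log2 ratio over members with a ratio was 1.83 in LuM1 over Colon26 (n = 7), -0.10 in LuM1 over NM11 (n = 8) and 2.66 in NM11 over Colon26 (n = 8), beside -0.10, -0.09 and -0.01 over all genes with a ratio. Over members measured in both lines it was 0.27 (n = 4), 0.38 (n = 7) and 0.89 (n = 4), beside -0.13, -0.11 and -0.02. The latter leave out the members not well above background in 1 of the lines, such as *Il6* and *Csf3* in Colon26 cells.

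The balance of higher and lower calls over all genes depended on the scaling. Of the genes called between LuM1 and Colon26, 52.5% were higher in LuM1, and 77.7% with the authors' own scaling. Between LuM1 and NM11 the share was 56.6%, and 68.6% without scaling, 87.8% when scaled to *Hprt* and 81.4% with the authors' scaling. Between NM11 and Colon26 it was 51.4%, and 20.1% when scaled to *Hprt*. The direction of each cytokine call held under every scaling tried, although the calls of *Il33* in LuM1 and of *Lif* in NM11 over Colon26 were lost under some of them.

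**Figure D3:**
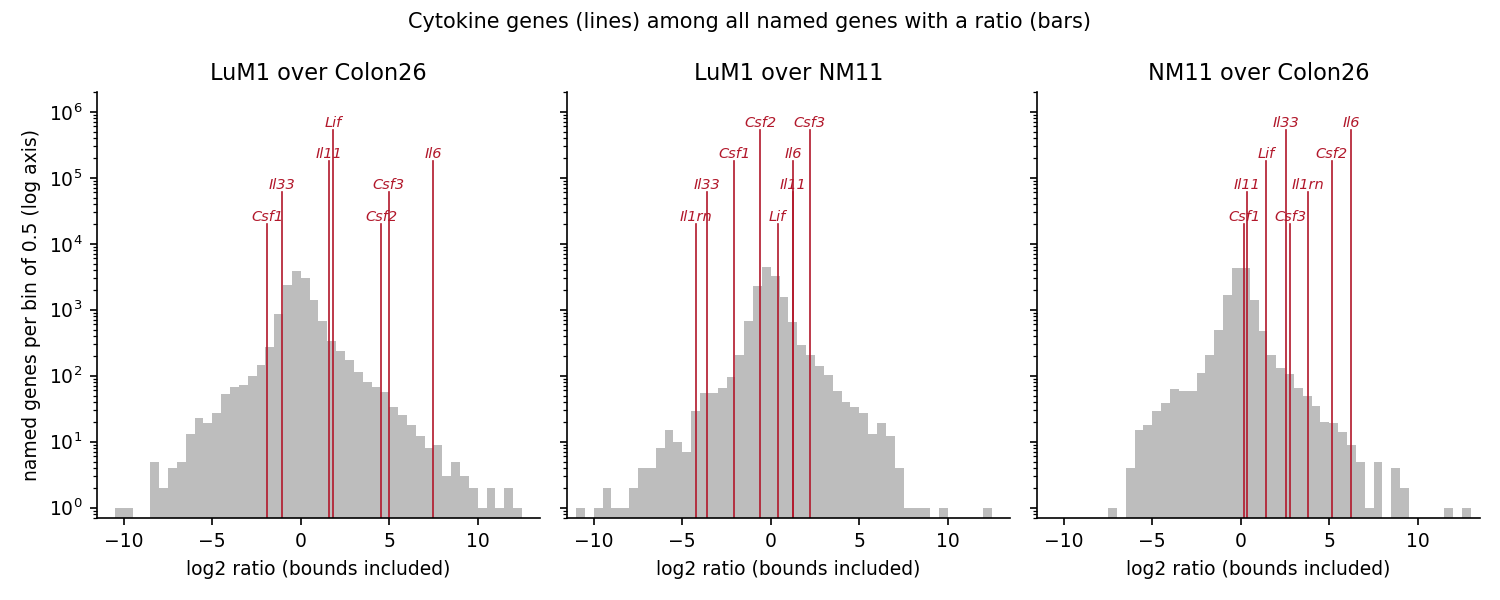
Number of named genes per bin of log2 ratio (log axis, bounds included) for each pair of lines, with a line at the ratio of each cytokine gene. *Il6* stands at the far right against Colon26 in both sublines, and *Il1rn*, *Il33* and *Csf1* stand in the left tail of LuM1 over NM11.

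RNA from a whole culture does not tell fewer expressing cells from less RNA per cell. Marker lists of other cell types were read beside these results. Of 8 macrophage markers, 4 were well above background in Colon26, 5 in LuM1 and 4 in NM11 cells, with summed signals of 7034, 17046 and 6213. *Ptprc*, *Adgre1* and *Fcgr1* were not well above background on any array. With their brightest probes, *Itgam* (5027, 6818 and 4251) and *Csf1r* (682.3, 690.6 and 674.7) were well above background everywhere and within 2-fold between lines. The dimmer *Itgam* probe was not well above background in LuM1 cells. *Cd68* (172.3, 5251 and 299.2), *Cd14* (1153, 4175 and 987.8) and *Lyz2* (112.0 in LuM1 cells, and not well above background elsewhere) were highest in LuM1 cells, as *Il6*, *Il11* and *Csf3* were. Of 8 fibroblast markers, 5, 7 and 7 were well above background, with sums of 66319, 55460 and 121223. Most of the sum in Colon26 and in NM11 cells was the signal of *Col1a2*. In LuM1 over Colon26, 4 of the markers were higher (*Col3a1*, *Dcn*, *Pdgfra* and *Thy1*) and 2 lower (*Col1a1* and *Col1a2*). Over all genes 12.9% were higher and 11.7% lower. *Dcn* (6.07, 27503 and 9599) and *Thy1* (5.26, 19560.0 and 15416) were high in both sublines without being well above background in Colon26 cells, as *Il6* was. *Col1a2* (59896, 49.6 and 85275) and *Col1a1* (4918, 2247 and 6045) went the other way and were lowest in LuM1 cells, *Col1a2* by 1207-fold against Colon26 and 1719-fold against NM11, and *Lum* was not well above background on any array.

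The neutrophil markers (5 on the array, 3 well above background in each line) summed to 564.9, 577.4 and 579.9 in Colon26, LuM1 and NM11 cells. The lymphocyte markers (2, 3 and 3 of 7) summed to 1624, 1580.2 and 1638, with *Cd8a*, *Ms4a1* and *Nkg7* not well above background on any array. Of 6 endothelial markers only *Pecam1* was well above background, at 51.3, 53.0 and 78.3. The part of other cell types in the cytokine signals was not tested.

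Receptor genes of these cytokines, with related receptor chains, were read from a list of 14, all on the array. Of these, 5 were higher in LuM1 than in Colon26 cells (*Il6st*, *Il11ra1*, *Osmr*, *Il1r1* and *Il1rap*) and 2 lower (*Il1rl1* and *Csf2ra*). *Osmr* is in these counts and in the list medians, although its ligand oncostatin M is not among the cytokine genes studied here. In NM11 over Colon26, 6 were higher, the same 5 with *Il1rl1*, and 1 was lower (*Csf2ra*). Between LuM1 and NM11, 0 were higher in LuM1 cells and 1 was lower (*Il1rl1*). Over the scalings tried, this higher count reached 1 (*Il1r1*) and this lower count reached 2 (*Il1rl1* and *Il1r2*). The higher count in NM11 over Colon26 fell to 5 when arrays were scaled to *Hprt*, where *Il1r1* was lost. The median log2 ratio over the list was 0.29 in LuM1 over Colon26, -0.43 in LuM1 over NM11 and 0.90 in NM11 over Colon26, and the medians and shares over all genes are those given above. *Lifr*, the receptor chain of LIF, and *Csf2rb2* were not well above background in any line.

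*Osmr*, the oncostatin M receptor chain that pairs with gp130, gave 56.8 ± 7.94 in Colon26, 2183 ± 218 in LuM1 and 3728 ± 373 in NM11 cells. Colon26 cells were far below both sublines, which stood 38.5-fold and 65.7-fold above them. *Il6st*, which encodes gp130 itself, gave 580.4, 1283 and 1955, a ratio of 2.21 in LuM1 and 3.37 in NM11 cells over Colon26, and its dimmer probe gave 1.65 for LuM1 over Colon26 and 0.342 for LuM1 over NM11. *Il6ra*, the IL-6 receptor chain, gave 2488, 3035 and 4102 and was within 2-fold throughout. *Il11ra1*, the IL-11 receptor chain, gave 875.2, 2700.4 and 2521, so that both sublines were above Colon26, by 3.09-fold and 2.88-fold.

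*Il1rap*, the accessory chain shared by the IL-1 and IL-33 receptors, gave 152.6 ± 16.3 in Colon26, 1369 ± 137 in LuM1 and 2668 ± 267 in NM11 cells, 8.97-fold and 17.5-fold above Colon26. *Il1r1*, the signalling IL-1 receptor, gave 715.2, 2409 and 1519, with ratios of 3.37 and 2.12 over Colon26. *Il1rl1*, which encodes the IL-33 receptor ST2, gave 3273 ± 327 in Colon26, 695.5 ± 69.7 in LuM1 and 60467 ± 6047 in NM11 cells. Its order, NM11 above Colon26 above LuM1, was that of its ligand *Il33*. NM11 cells were 18.5-fold above Colon26, and LuM1 cells were 4.71-fold below Colon26 and 86.9-fold below NM11 cells. The other *Il1rl1* probes carry another RefSeq accession of the gene. The brighter of them gave 1236 in Colon26, 324.2 in LuM1 and 22277 in NM11 cells. The dimmer was well above background in NM11 cells only, at 600.2.

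The receptors of the colony-stimulating factors differed little, apart from *Csf2ra*, whose signal was low. *Csf1r*, the M-CSF receptor, gave 682.3, 690.6 and 674.7 in Colon26, LuM1 and NM11 cells. *Csf3r*, the G-CSF receptor, gave 46129, 52932 and 41470.5. *Csf2rb*, the signalling chain of the GM-CSF receptor, gave 43.5, 49.4 and 53.4. *Csf2ra*, its ligand-binding chain, gave 59.6 ± 8.40 in Colon26 cells and was not well above background in the sublines, at least 2.96-fold lower in LuM1 and at least 3.04-fold lower in NM11 cells. *Csf2* and *Csf2ra* thus had opposite orders between Colon26 and the sublines.

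**Figure D4:**
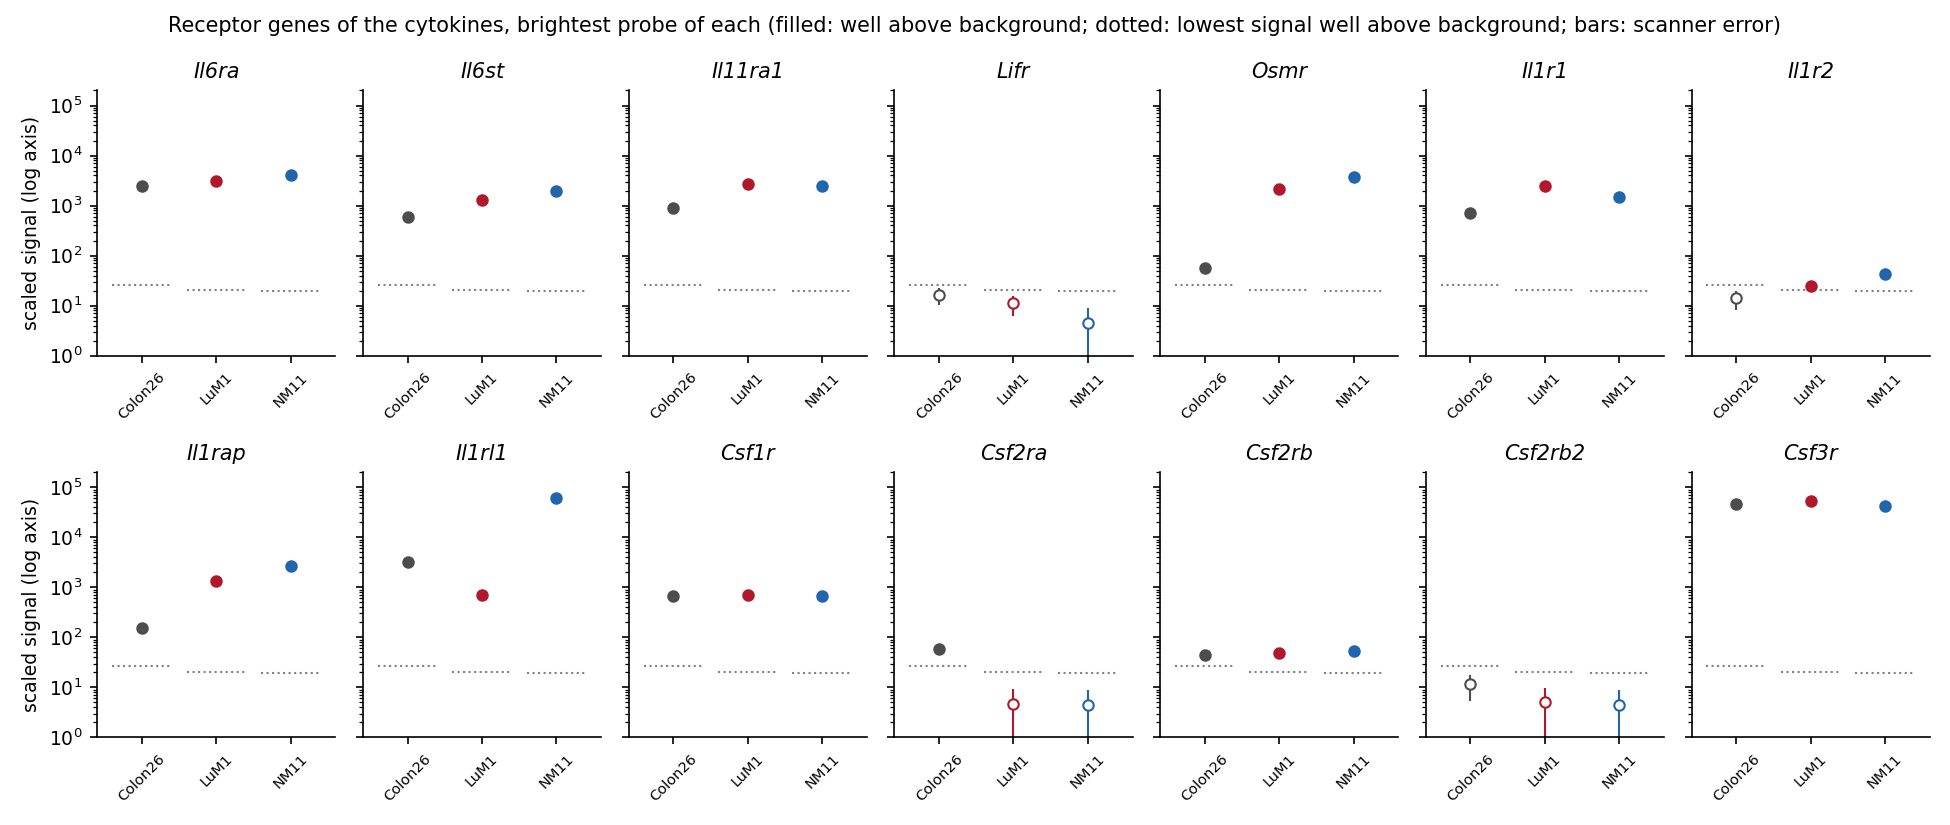
Scaled signal (log axis) of the brightest probe of each receptor gene in the 3 lines, 1 array per line, with filled symbols well above background, open symbols not, bars for the scanner error and dotted lines at the lowest signal well above background. *Osmr* and *Il1rap* are lowest in Colon26 cells, *Il1rl1* is highest in NM11 cells, and *Csf1r* and *Csf3r* are level.

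Genes of gp130 and JAK-STAT signalling, some of which STAT3 induces, were read from a list of 18, all on the array. In LuM1 over Colon26, 6 were higher, 0 lower and 12 within 2-fold, beside 12.9% higher and 11.7% lower over all genes. In NM11 over Colon26, 7 were higher, 0 lower and 11 within, beside 8.17% and 7.74% over all genes. In LuM1 over NM11 1 was higher, 1 lower and 16 within, beside 11.1% and 8.5%. The median log2 ratio over the list was 0.57 in LuM1 and 0.67 in NM11 over Colon26 and 0.09 between the sublines. No test of these counts was possible with 1 array per line, and over the scalings tried the lower count in NM11 over Colon26 reached 3 and the higher count in LuM1 over NM11 reached 5.

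*Bcl3*, an IκB-family coactivator, gave 6.73 in Colon26 cells, not well above background, 12008 in LuM1 and 6346 in NM11 cells, at least 455-fold and 240-fold higher. *Cebpd*, an acute-phase transcription factor, gave 4673, 49178 and 35705, with ratios of 10.5 and 7.64 over Colon26. *Stat3* gave 1337, 7224 and 8355, with ratios of 5.40 and 6.25, and its dimmer probe had 2.26 and 2.61. *Socs3*, the feedback inhibitor of gp130 signalling, gave 2583, 12769.6 and 8941, with ratios of 4.94 and 3.46. These 4 genes were lowest in Colon26 cells, as *Il6* was.

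Between the sublines, *Cish*, a feedback gene of STAT5, gave 39.9 ± 6.39 in LuM1 and 309.8 ± 31.3 in NM11 cells, 7.76-fold lower in LuM1 cells, and 12.3 in Colon26 cells, not well above background. *Pim1*, a kinase gene that STATs induce, gave 1729 in Colon26, 2227 in LuM1 and 958.8 in NM11 cells and was 2.32-fold higher in LuM1 than in NM11 cells. *Stat5a* and *Stat5b*, which GM-CSF signalling uses, were within 2-fold between all lines with their brightest probes. The dimmer *Stat5a* probe disagreed, at 219.5 in Colon26, 777.0 in LuM1 and 811.8 in NM11 cells, with ratios of 3.54 and 3.70 over Colon26.

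**Figure D5:**
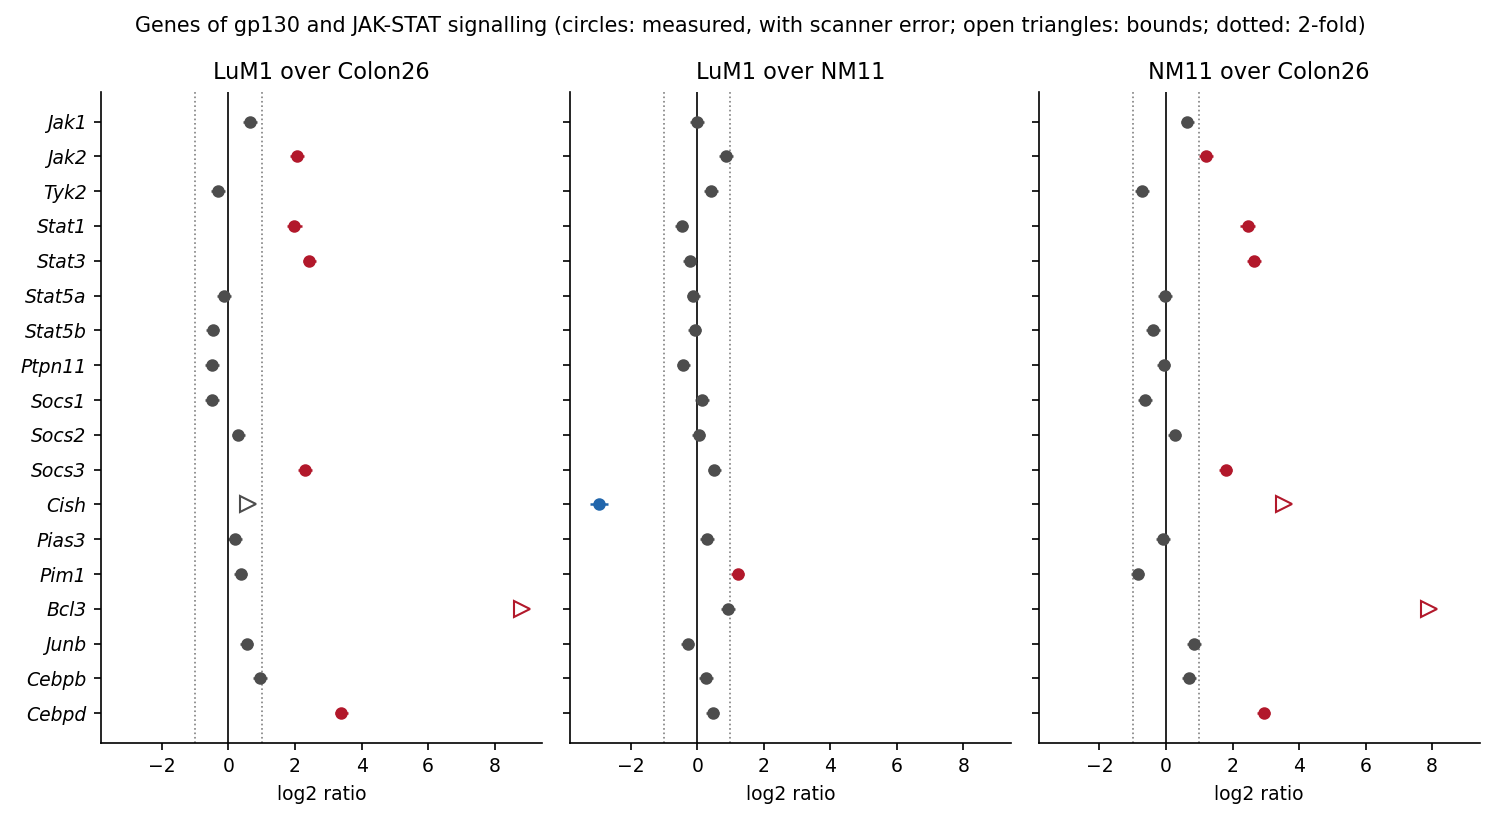
Log2 ratio of each gene of the gp130 and JAK-STAT list for the 3 pairs of lines, with circles for measured ratios (bars are the scanner error), open triangles for bounds and dotted lines at 2-fold. *Bcl3*, *Cebpd*, *Stat3* and *Socs3* lie right of the 2-fold line against Colon26 in both sublines, and most genes lie near 0 between the sublines.

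Genes that process IL-1 or carry its receptor's signal were read from a list of 20. In LuM1 over Colon26, 5 were higher, 1 lower and 13 within 2-fold (12.9% and 11.7% of all genes were higher and lower). In NM11 over Colon26 the counts were 4, 1 and 12 (8.17% and 7.74% of all), and in LuM1 over NM11 1, 2 and 16 (11.1% and 8.5%). *Casp1*, the protease that cuts pro-IL-1β, gave 598.4 ± 60.1 in Colon26, 5799 ± 579.9 in LuM1 and 11097 ± 1109.7 in NM11 cells, 9.69-fold and 18.5-fold above Colon26. *Casp4*, the protease of the noncanonical inflammasome, gave 839.3, 3321 and 7510.5, with ratios of 3.96 and 8.95, and was 2.26-fold lower in LuM1 than in NM11 cells. *Aim2*, a sensor of cytosolic DNA, gave 391.3, 1558 and 956.7, a ratio of 3.98 in LuM1 over Colon26. *Nlrp3*, another inflammasome sensor, was well above background in LuM1 cells only, at 59.2 ± 7.47, at least 2.24-fold above Colon26 and 2.92-fold above NM11. Its call over Colon26 was lost under quantile normalization. *Myd88*, the adaptor of IL-1 receptors, gave 2612, 2044 and 4419 and was 2.16-fold lower in LuM1 than in NM11 cells. *Casp1* and *Casp4* were thus well above background in every line, while neither agonist gene was in any. The median log2 ratio over the list was 0.18 in LuM1 over Colon26, -0.34 in LuM1 over NM11 and 0.19 in NM11 over Colon26, and over the scalings tried the higher count in LuM1 over NM11 reached 5. The lower calls of *Casp4* and *Myd88* against NM11 were both lost without scaling, scaled to *Hprt*, under quantile normalization and with the authors' values, which left a lower count of 0.

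Other ligands of the same families were read from a list of 19, of which 9 were not well above background in any line, *Osm*, *Il3* and *Il5* among them. In LuM1 over Colon26, 1 was higher, 2 lower and 7 within 2-fold (12.9% and 11.7% of all genes were higher and lower). In LuM1 over NM11 the counts were 1, 3 and 6 (11.1% and 8.5% of all), and in NM11 over Colon26 2, 1 and 7 (8.17% and 7.74%), where the lower count was 4 when arrays were scaled to *Hprt*. The median log2 ratios were -0.41, -0.26 and -0.13. *Il18*, an IL-1 family cytokine that caspase-1 activates, gave 28.8 ± 6.14, 341.9 ± 34.4 and 117.2 ± 12.4, 11.9-fold higher in LuM1 than in Colon26 and 2.92-fold higher than in NM11 cells. *Kitl*, which encodes stem cell factor, gave 50.2, 73.2 and 463.3, so that NM11 cells were 9.23-fold above Colon26 and LuM1 cells 6.33-fold below NM11. *Ctf1*, which encodes the gp130 ligand cardiotrophin 1, gave 359.9, 179.8 and 225.8 and lay just past the 2-fold line below Colon26 in LuM1 cells, a call lost under most scalings tried.

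The genes whose pattern over the 3 lines came nearest to each member were listed for the 4 members well above background in every line, as the distance between their log2 ratios over Colon26, among 12249 genes. For *Il11* these were *Spag1* (distance 0.025), *C1qtnf6* (0.056) and *Cdc14b* (0.080), and 30 genes lay within 0.2. For *Lif* they were *Hddc3* (0.080), *Parp8* (0.10) and *Nipsnap3b* (0.11), with 14 genes within 0.2. For *Csf1* they were *Tmem74* (0.032), *Mllt3* (0.079) and *Cnn2* (0.12), with 5 genes within 0.2. For *Il33* they were the chemokine gene *Ccl5* (0.19), *Egr2* (0.19) and the chemokine gene *Ccl9* (0.22), with 2 genes within 0.2. With 3 arrays such a distance rests on 2 ratios per gene, and a gene can come close by that measure alone.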

How the data were processed

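Total RNA of Colon26, LuM1 and NM11 cells was hybridised to Agilent mouse expression arrays, 1 array per line, all on 1 slide. The authors deposited intensity values for each spot, background-subtracted by Feature Extraction 11.5.1.1 with no scaling between arrays, and scanner flags with a score of 0 or 1 per spot. The processed intensity table that the authors deposited is the scanner intensity multiplied by a constant of each array (Colon26 0.654, LuM1 0.829, NM11 0.706) and served as an alternative.

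Control spots and outlier spots (137, 74 and 99) were left out, repeated spots of a probe were averaged, and arrays were scaled to the 75th percentile of their spots (581.1, 625.1 and 551.5 before scaling). RefSeq accessions of GRCm38.p6 gave a gene name to 32994 of 56605 probes (58.3%). A gene was represented by its probe with the highest mean log2 signal. On the arrays 49.9%, 53.8% and 52.5% of probes were well above background and 0 were saturated. The number of arrays limits the precision, and p-values were not computed. The arrays give no read depth.

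The members and gene lists were chosen with earlier results of these data known. From each list up to 6 genes with the largest log2 ratios were named by rule, with 3 nearest genes per member. Other genes named were chosen after their values were seen. A gene of the list of other ligands that the rule names counts in that list and is not reported here by name. The list of mRNA decay factors also holds regulators that do not degrade RNA.

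Python 3.11.15, numpy 2.4.6, pandas 2.3.3, matplotlib 3.10.9, R 4.3.3 and limma 3.58.1 were used, the last for normexp correction with an offset of 50, planned on mean spot brightness and run on the median, which the files hold.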

Additional observations from a re-analysis of the deposited data

How the results depend on the processing

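The counts of members called and the member ratios were recomputed under alternatives. These were no scaling, scaling to *Hprt*, to the median of well-measured probes or by quantiles, normexp correction and the authors' processed values. The others were a looser detection rule, no filter, the mean of probes, the probe brightest in LuM1 and, for counts only, a 4-fold threshold. Counts of the other gene lists were recomputed under the scalings and the authors' values only. List medians, marker sums and nearest genes were not recomputed. Of 230 log2 ratios of members under the alternatives, 155 stayed within 1 scanner error of the value reported, 75 moved by more and 0 of the called ratios reversed. A bound has no scanner error of its own, so the median error over all genes of that comparison was used for it. The count lower in LuM1 than in Colon26 and the count lower than in both other lines each became 1 (*Csf1*) without scaling, scaled to *Hprt*, with normexp, with the authors' values and with the mean of probes, where *Il33* over Colon26 had a log2 ratio of -0.94, -0.94, -0.64, -0.59 and -0.67. At 4-fold both of these counts were 0, the count higher than in Colon26 was 3 (*Il6*, *Csf2* and *Csf3*), and the count higher than in NM11 and that higher than in both were each 1 (*Csf3*). The 4-fold results follow from the threshold, and for *Il33* the cause was not tested.

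Under the looser detection rule *Il1b* in LuM1 had a log2 bound of 1.76 over Colon26 and a log2 ratio of 2.12 over NM11. The NM11 signal behind that ratio was 4.83 ± 4.58, and the other *Il1b* probe gave 4.64 in LuM1 and 4.12 in NM11 cells. With the probe brightest in LuM1, *Il1rn* was represented by its dimmer probe, with log2 bounds of 0.30 in NM11 over Colon26 and -0.69 in LuM1 over NM11. Both *Il1rn* calls were lost, and these counts became 5 and 2. With the mean of probes *Csf1* in NM11 over Colon26 had a log2 ratio of -0.54, and scaled to *Hprt* -0.31. The median of all measured genes shifted by 0.11, 0.10 and 0.45 in LuM1 over Colon26 (without scaling, to *Hprt*, authors' values), by 0.18, 0.59 and 0.41 in LuM1 over NM11, and by -0.49 in NM11 over Colon26 scaled to *Hprt*. The lowest signals well above background, given above, limit what can be seen of *Il1a* and *Il1b*. No paired analysis was possible because each line has 1 array.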

Other observations

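Genes that act on cytokine transcripts after transcription, with related feedback regulators, were read from a list of 13, all well above background in both sublines. In LuM1 over Colon26, 4 were higher, 0 lower and 9 within 2-fold (12.9% and 11.7% of all genes were higher and lower). In NM11 over Colon26 the counts were 3, 0 and 10 (8.17% and 7.74% of all), and in LuM1 over NM11 1, 2 and 10 (11.1% and 8.5%). *Nfkbiz*, which encodes IκBζ, a nuclear coactivator of NF-κB at the *Il6* promoter, gave 178.8 ± 18.7 in Colon26, 3651 ± 365 in LuM1 and 1967 ± 197 in NM11 cells, 20.4-fold above Colon26 in LuM1 cells and by a log2 ratio of 3.46 in NM11 cells. *Zc3h12a*, which encodes Regnase-1, an endonuclease that degrades *Il6* mRNA, was not well above background in Colon26 cells (10.4) and gave 354.9 ± 35.9 in LuM1 and 135.8 ± 14.4 in NM11 cells. It was at least 13.4-fold and 5.14-fold above Colon26 and 2.61-fold higher in LuM1 than in NM11 cells. *Rc3h1*, which encodes the decay factor Roquin-1, gave 567.9, 1433 and 948.7 with a ratio of 2.52 in LuM1 over Colon26. *Zfp36*, which encodes the decay factor tristetraprolin, gave 241.7, 290.2 and 688.9 and was 2.37-fold lower in LuM1 than in NM11 cells. *Arid5a*, whose product stabilises *Il6* mRNA, gave 9258, 5749.5 and 14875 and was 2.59-fold lower in LuM1 than in NM11 cells. The median log2 ratio over the list was 0.20 in LuM1 over Colon26, -0.22 in LuM1 over NM11 and 0.68 in NM11 over Colon26. Over the scalings tried, the higher count in LuM1 over NM11 reached 3 and the lower count fell to 0.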
